A study of Mus musculus with 3 samples.

Results

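The milk fat globule and droplet genes are a set of 8 genes whose products make, coat or digest the fat of milk: Plin2, Btn1a1, Xdh, Mfge8, Cidea, Muc1, Dgat1 and Cel. Members were found by gene symbol in the platform annotation of the value table, and 7 of the 8 were measured among 15056 named genes. Mfge8 was not analysed here. Muc1 was represented by 4 rows of the table and each of the other 6 by 1 row. No measured value entered the choice of a member, but the set was drawn up with earlier results of these data known.

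Each of 3 arrays compared total RNA of a late carcinoma, an outgrowth taken at 18 weeks (Cy3), with that of an adenoma, an outgrowth taken at 5 weeks (Cy5). Both stages grew from single hyperplasias of pubertal mice that carried 2 transgenes, MMTV-PyMT and B-actin-GFP, transplanted into hosts of the same strain. MMTV-PyMT is the polyoma middle T antigen under the mouse mammary tumour virus promoter, which acts mainly in mammary epithelium. The strain, sex and age of the hosts were not among the labels. Host tissue around an outgrowth was not separated from it, as far as the labels say. The dye orientation was the same on all 3 arrays, so a dye effect cannot be told apart from the stage. Whether the arrays hold RNA of separate animals is not stated, and the p-values below reflect array-to-array spread alone, possibly of technical origin.

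The deposited values were taken as log2 ratios of Cy5 to Cy3, that is adenoma over late carcinoma. A value below 0 is therefore likely higher in the late carcinomas, and a value above 0 likely lower in them. The labels give the dyes and channels, and the usual convention gives the rest: the file names no numerator and no log base. With the opposite numerator every direction given here would turn. In RNA of a whole outgrowth, fewer cells of a type and less RNA per cell cannot be told apart. No level of any gene was measured, only ratios, so whether the luminal or alveolar markers are present at all could not be checked.

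In the alveolar cell of the lactating gland, triglyceride is made in the endoplasmic reticulum and stored in droplets coated by the perilipin Plin2. The droplet moves to the apical membrane and leaves the cell wrapped in that membrane. Butyrophilin (Btn1a1) in the membrane, xanthine dehydrogenase (Xdh) beneath it and Plin2 on the droplet are thought to form the contact through which the membrane closes over the fat. The mucin Muc1 and the secreted protein Mfge8 sit on the outside of the globule, and the bile salt-stimulated lipase Cel is secreted into milk, where it helps digest the fat.

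Upstream sequences are shown for 3 measured members, Plin2, Cel and Muc1, which RefSeq's table for GRCm38.p6 holds. That table has no entry for Btn1a1, Xdh and Dgat1, and Cidea was left out. Each line gives the 250 bases before the annotated start, on the gene's own strand and 5′ to 3′. Plin2 is on the minus strand, at chr4:86670060-86670309. Cel is on the minus strand, at chr2:28563404-28563653. Muc1 is on the plus strand, at chr3:89228806-89229055. Capitals mark matches to 3 motifs.
Plin2: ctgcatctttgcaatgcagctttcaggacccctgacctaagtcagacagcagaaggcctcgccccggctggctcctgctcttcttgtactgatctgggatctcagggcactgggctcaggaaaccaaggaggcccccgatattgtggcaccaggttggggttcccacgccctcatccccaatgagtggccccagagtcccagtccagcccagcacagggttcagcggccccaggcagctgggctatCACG
Cel: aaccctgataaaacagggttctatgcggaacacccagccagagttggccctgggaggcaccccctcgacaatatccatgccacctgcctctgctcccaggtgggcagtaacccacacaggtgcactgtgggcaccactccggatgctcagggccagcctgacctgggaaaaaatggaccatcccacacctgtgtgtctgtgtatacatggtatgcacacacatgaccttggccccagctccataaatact
Muc1: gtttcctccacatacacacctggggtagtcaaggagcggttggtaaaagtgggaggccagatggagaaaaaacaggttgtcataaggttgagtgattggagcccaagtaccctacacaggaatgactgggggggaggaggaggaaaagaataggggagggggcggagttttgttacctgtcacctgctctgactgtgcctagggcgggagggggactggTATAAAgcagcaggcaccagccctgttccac

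The motifs were searched on both strands over these bases and the first 50 after the start, and were chosen after the sequences had been seen. They were TTCNNNGAA, the form bound by STAT5, which relays prolactin, the E-box CACGTG, and the TATA box TATAAA. The E-box of Plin2 spans the start, with its first 4 bases at the end of the printed line and its last 2 beyond it, and 7.15% of 32851 promoters in the table held an E-box in the same window. Muc1 had a TATA box whose first base lies 31 bases before the start, against 13.6% of promoters with one. TTCNNNGAA was in 8.30% of promoters and in none of these 3 windows. Cel held none of the 3 motifs in this window. These are descriptions of the letters and were not tied to the ratios.

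Of the 7 measured members, 2 passed on the late carcinoma side, 2 passed on the adenoma side and 3 did not pass. Plin2 and Cel were the members that passed below 0, and Btn1a1 and Xdh those that passed above 0. The test was limma's moderated test of the mean log2 ratio against 0, fitted over 31058 genes and unnamed probes, called at 0.05 after Benjamini-Hochberg adjustment. In the same fit 9.21% of all genes and probes passed below 0 and 15.9% above 0, or 25.1% in all. The median of the 7 means was -0.10, against -0.019 over all genes and probes. Without array 3 none of the 7 passed (limma adjusted p from 0.114 to 0.975), though Plin2, Btn1a1 and Xdh kept an unadjusted p under 0.05 there, and 1 gene or probe passed in all, against 7809 with 3 arrays.

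**Figure D1:**
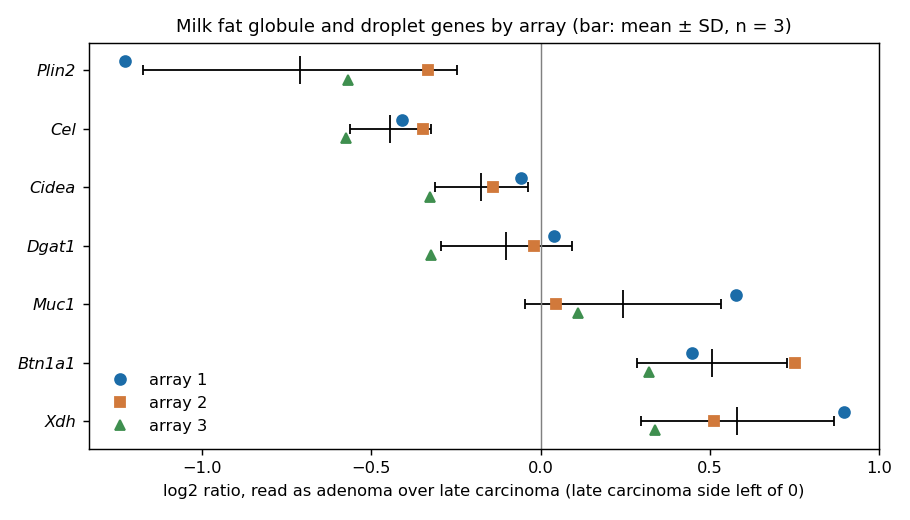
Log2 ratios of the 7 measured members, read as adenoma over late carcinoma, with 1 point per array and the mean ± SD over 3 arrays as a bar; Muc1 is the mean of 4 rows. Plin2 and Cel lie left of 0 on all 3 arrays, Btn1a1 and Xdh right of 0, and Plin2 has the widest spread, with array 1 farthest out.

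Plin2, the perilipin that coats the milk fat droplet, had log2 ratios of -1.23, -0.33 and -0.57 on arrays 1, 2 and 3. All 3 lay on the late carcinoma side, with array 1 far below the other two. The mean was -0.71 ± 0.46 (SD, n = 3), a 1.64-fold ratio with the late carcinomas likely higher (95% confidence interval of the log2 mean -1.14 to -0.28, limma adjusted p = 0.0315). Only 2.14% of all genes and probes had a mean as low. On the single arrays Plin2 stood at the 1.27th, 16.4th and 5.89th percentile. Leaving out array 1 gave -0.45, still past the threshold, and subtracting a running median over 29 neighbouring rows of the table gave -0.57, which did not pass (limma adjusted p = 0.0839).

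Cidea, a droplet fusion protein that also acts in brown fat and is induced in the lactating mammary gland, had -0.059, -0.14 and -0.33 on the 3 arrays. The values were all below 0 but small, and the mean of -0.18 ± 0.14 (SD, n = 3) did not pass (limma adjusted p = 0.270, interval -0.43 to 0.084). Dgat1, which adds the last acyl chain in triglyceride synthesis, had 0.040, -0.020 and -0.32. It lay on both sides of 0, with a mean of -0.10 ± 0.19 (limma adjusted p = 0.554, interval -0.38 to 0.18). Its sign depended on array 3, without which the mean was 0.010. These intervals do not show that either gene was alike in both stages.

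Btn1a1, the butyrophilin of the globule membrane, had log2 ratios of 0.45, 0.75 and 0.32. All 3 arrays lay on the adenoma side, array 2 highest. The mean was 0.51 ± 0.22 (SD, n = 3), a 1.42-fold ratio with the late carcinomas likely lower (interval 0.21 to 0.80, limma adjusted p = 0.0285). The call was lost without array 2 (0.38, limma adjusted p = 0.0990) and with the running median (0.37, limma adjusted p = 0.0873).

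Xdh, an enzyme of purine breakdown that also has a structural part in globule secretion, had 0.89, 0.51 and 0.34. It too lay on the adenoma side on every array, highest on array 1. The mean was 0.58 ± 0.28 (SD, n = 3), a 1.50-fold ratio with the late carcinomas likely lower (interval 0.26 to 0.90, limma adjusted p = 0.0256). It was the highest mean among the members, 0.075 above Btn1a1, and the order of these neighbours was the reverse on array 2.

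Muc1, the transmembrane mucin of the apical surface, had gene means of 0.58, 0.044 and 0.11 on the 3 arrays. All 3 lay above 0, but the mean of 0.24 ± 0.29 (SD, n = 3) did not pass (limma adjusted p = 0.226, interval -0.081 to 0.57). Its 4 rows, which share 1 annotated transcript, did not give the same value. Row 1 had 0.75, -0.53 and -0.37, row 2 had 0.61, 0.31 and 0.33, row 3 had 0.49, 0.40 and 0.55, and row 4 had 0.45, -0.0010 and -0.063. Array 1 put all 4 rows above 0, between 0.45 and 0.75, while arrays 2 and 3 each had 2 rows above and 2 below 0. Tested as probes of their own, rows 2 and 3 passed above 0 (limma adjusted p = 0.0425 and 0.0223) and rows 1 and 4 did not (limma adjusted p = 0.895 and 0.523). The row means spanned 0.53, and the median span over 298 genes with 4 rows was 0.68, and 34.9% of those genes had a span no wider than that of Muc1. The other 6 members, with 1 row each, had no such check.

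**Figure D2:**
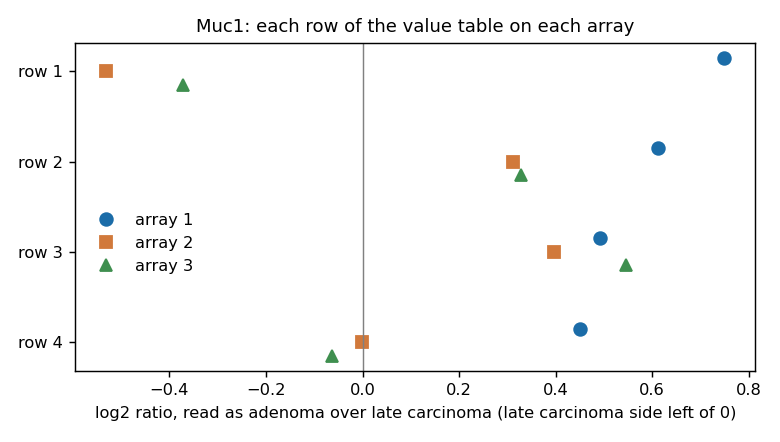
Log2 ratio of each of the 4 Muc1 rows on each array, read as adenoma over late carcinoma. The rows agree in side on array 1, between 0.45 and 0.75, and fall on both sides of 0 on arrays 2 and 3.

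Cel, the bile salt-stimulated lipase of milk and pancreas, had -0.41, -0.35 and -0.58. The 3 arrays were close together, all on the late carcinoma side, with array 3 lowest. The mean was -0.44 ± 0.12 (SD, n = 3), a 1.36-fold ratio with the late carcinomas likely higher (interval -0.70 to -0.19, limma adjusted p = 0.0279). Of all genes and probes 7.94% had a mean as low. Cel lay above Plin2 by 0.27 in mean, but that gap came from array 1 alone, and on arrays 2 and 3 Cel was lower by 0.013 and 0.008. The order from Cel through Cidea and Dgat1 to Muc1 held on all 3 arrays, with gaps of 0.27, 0.074 and 0.34 in mean.

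Genes of smell receptors, which serve the nose, give a comparison measured in the same way. The 979 olfactory and vomeronasal receptor genes had a median mean log2 ratio of 0.34, with 26 past the threshold below 0 and 426 above 0. Btn1a1 and Xdh stood at the 61.1st and 66.6th percentile of these receptor genes, well inside their range. Plin2 and Cel stood near its lower end, at 0.102 and 1.94 percent. Setting 0 at the receptor genes (receptor centring) lowered arrays 1, 2 and 3 by 0.39, 0.27 and 0.36 and moved the median of all genes and probes to -0.36. Under it 4 members passed below 0 (Plin2, Cidea, Dgat1 and Cel) and 0 above 0, against 53.4% and 7.49% of all genes and probes. Btn1a1 then had 0.16 (limma adjusted p = 0.306) and Xdh 0.24 (limma adjusted p = 0.147), so both stayed above 0 and lost their call, while Plin2 (-1.05) and Cel (-0.78) kept theirs.

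**Figure D3:**
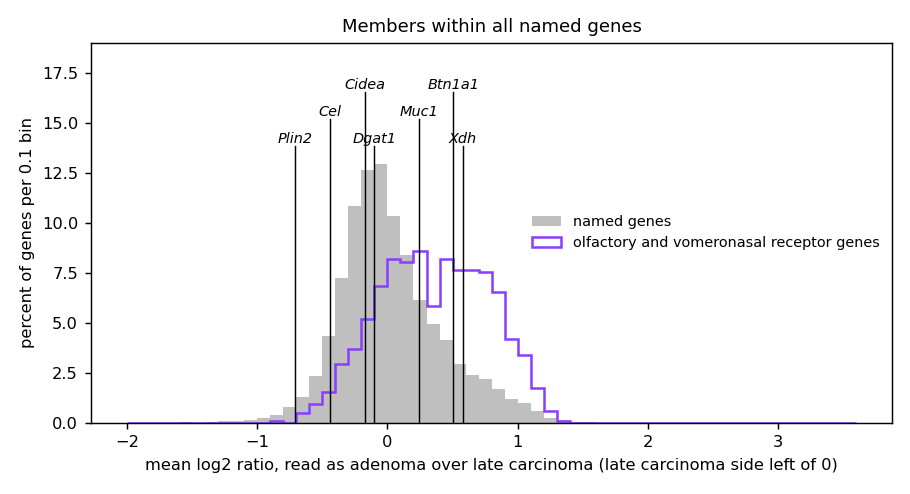
Share of named genes (grey) and of 979 receptor genes (outline) per bin of mean log2 ratio, read as adenoma over late carcinoma, with the 7 members as lines. Btn1a1 and Xdh lie amid the receptor genes, whose median is 0.34, and Plin2 lies near the lower end of both distributions.

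The closest relatives of the members were looked up after their values were seen. Among the perilipins, Plin5, which serves oxidative tissues, lay beside Plin2 on the late carcinoma side, with -0.51, -0.83 and -0.62 on the 3 arrays and a mean of -0.66 ± 0.16 (limma adjusted p = 0.0130). Plin3 had -0.31 ± 0.14, Plin1, the perilipin of fat cells, 0.028 ± 0.23, and Plin4 0.31 ± 0.012. None of these 3 passed (limma adjusted p = 0.0820, 0.885 and 0.0642), though Plin3 passed with receptor centring, the running median and array weights, and Plin4 with named genes alone and array weights, while it turned its sign with receptor centring. The relatives of Cidea did not pass, with -0.15 ± 0.23 for Cideb and -0.28 ± 0.19 for Cidec, though both passed below 0 with receptor centring and Cidec also with array weights. Dgat2, the other enzyme of the last step, had -0.12 ± 0.18, beside the -0.10 of Dgat1, and it too passed below 0 with receptor centring.

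Other genes of the pathway were read from lists drawn up with earlier results known. The share that passed was 22.7% for other lipid droplet genes, 27.3% for other globule membrane proteins, 11.8% for triglyceride synthesis and 37.5% for the 8 fatty acid uptake genes, against 25.1% of all genes and probes, of whose calls 63.4% lay above 0. Of 22 other lipid droplet genes, 1 passed below 0 and 4 above 0, with a list median of 0.013. Besides Plin5 these were G0s2, an inhibitor of droplet lipolysis (1.34 ± 0.39), Bscl2, the seipin of droplet formation (0.82 ± 0.37), Acsl3, which activates fatty acids at the droplet (0.84 ± 0.42), and Abhd5, which stimulates that lipolysis. Under receptor centring the split was 11 below and 3 above, with G0s2, Bscl2 and Acsl3 still above 0. Of all genes and probes 53.4% then passed below 0 and 7.49% above. Of 11 other globule membrane proteins, 0 passed below 0 and 3 above 0: Muc15, a mucin of the globule membrane (0.80 ± 0.052), the folate receptor Folr1 (0.62 ± 0.30) and the fatty acid receptor Cd36 (0.55 ± 0.25). With receptor centring 5 of the 11 passed below 0, and of these 3 Muc15 alone kept its call. Folr1 (0.28) and Cd36 (0.20) stayed above 0 without passing. Muc15 is a mean of 2 rows, and its first row alone had 1.35. Fabp3, the fatty acid carrier of the globule, had 0.48 ± 0.33 and did not pass (limma adjusted p = 0.0539). It passed above 0 in 4 of 13 other settings, median centring among them.

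Triglyceride synthesis genes, the pathway of Dgat1, had 0 of 17 past the threshold below 0 and 2 above 0, with a median of -0.029. The 2 were Acsl4 (0.62 ± 0.14) and Agpat5 (0.38 ± 0.12). Agpat1, another gene of the list, had -0.41 ± 0.21 and narrowly did not pass (limma adjusted p = 0.0502). It passed below 0 in 6 of 13 other settings. With receptor centring 9 passed below and 0 above, against 53.4% and 7.49% of all genes and probes. Fatty acid uptake genes held 0 of 8 below 0 and 3 above 0: Fabp4 (3.49 ± 0.60), Fabp5 (0.60 ± 0.18) and Lpl, the lipoprotein lipase that releases fatty acids for the gland (0.44 ± 0.15). Of these Fabp4 alone passed with receptor centring, where 2 other genes of the list passed below 0. Fabp5 is a mean of 2 rows, and its first row alone had 0.43 and did not pass.

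The families and partners of single members were counted in the same way, and no difference from the member was tested. Of 11 other lipases, 0 passed below 0 and 3 above 0, or 27.3%, with a median of 0.14: Lipg and Lipa had means of 0.65 each, with SDs of 0.20 and 0.31, and Lpl is given above. None of the 3 passed with receptor centring, where 2 other lipases passed below 0. In the butyrophilin family 1 of 3 passed below 0, Btnl9 at -0.86 ± 0.24, and 0 passed above 0, with a median of -0.28. Among 5 other mucins Muc15 alone passed. The share that passed was 33.3% for the butyrophilins and 20% for these mucins, against 25.1% of all genes and probes. Of 11 genes of purine breakdown and the molybdenum cofactor that Xdh needs, 0 passed by limma at the adjusted threshold, Ampd3 (0.27 ± 0.067, unadjusted p = 0.0344) and Gda (0.22 ± 0.071) having the largest means in size. Of 14 partners of Mfge8 in the uptake of dying cells 28.6% passed, with a median of -0.11. Of these, 2 passed below 0, Rac1 (-0.87 ± 0.47) and Gas6 (-0.44 ± 0.073), and 2 above 0, the integrin genes Itgav (0.48 ± 0.18) and Itgb5 (0.55 ± 0.28), which did not pass with receptor centring. Itgb5 is a mean of 2 rows, and its first row alone had 0.16 and did not pass. Receptor centring gave 3 below and 0 above for the butyrophilins and 2 and 1 for the mucins. It gave 3 and 0 for purine breakdown and 10 and 0 for the partners of Mfge8. Of all genes and probes 53.4% passed below 0 and 7.49% above under it.

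The milk proteins, secreted by the same cell, held the largest ratios of these lists beside Fabp4. Of 9 measured, 0 passed below 0 and 7 above 0, or 77.8%, against 25.1% of all genes and probes. Their median was 1.48. With receptor centring 6 still passed above 0 and 1 below, against 7.49% and 53.4% of all genes and probes. Csn1s2a had 2.77, 3.65 and 3.97 on the 3 arrays, and Wap had 2.77, 2.57 and 1.99. Csn1s1 had a mean of 2.55 ± 0.33 over 2 rows, the first alone 3.95, and Csn2 had 1.48 ± 0.46. The member nearest to these, Xdh, had a mean of 0.58, and Plin2 lay on the other side of 0. Regulators of alveolar lipid secretion held 1 of 12 past the threshold below 0, Cebpb (-0.63 ± 0.17), and 4 above 0, or 41.7% in all. The 4 included Thrsp (1.82 ± 0.34) and Srebf1 (1.36 ± 0.35), which promote fatty acid synthesis, and Elf5, which drives alveolar differentiation (0.67 ± 0.22). Those 3 kept their call with receptor centring, and the other did not. The list then held 4 past the threshold below 0 and 3 above, with a median of -0.17 against 0.17 without that centring. Elf5 is a mean of 2 rows, and its first row alone had 0.89.

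**Figure D4:**
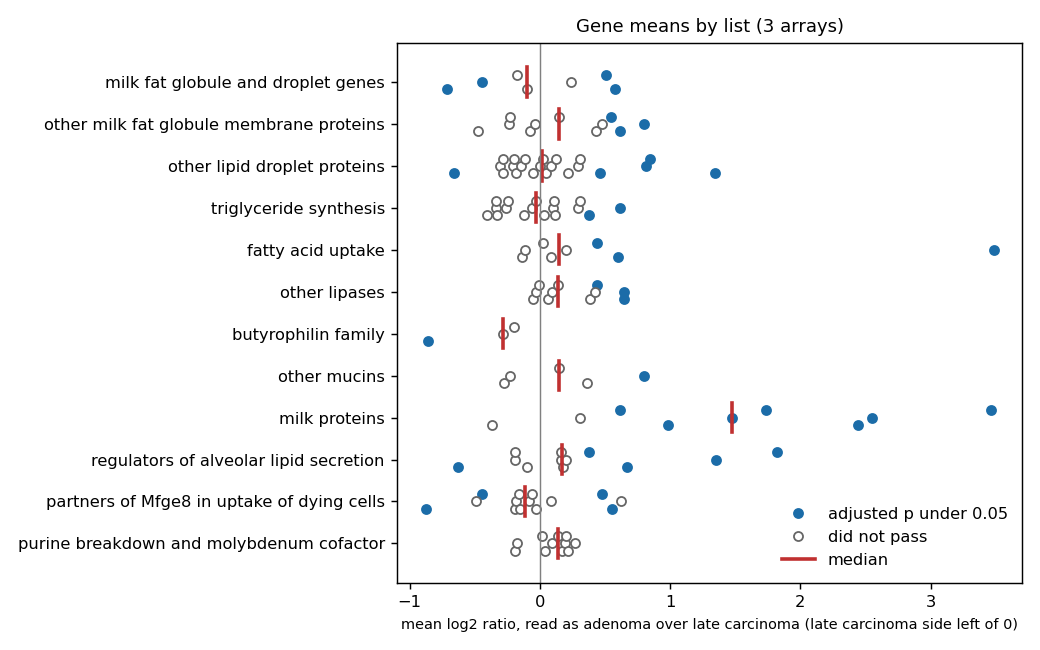
Mean log2 ratio of each measured gene over 3 arrays, read as adenoma over late carcinoma, by list, with filled points for genes past the adjusted threshold, open points for the rest and a line at each list's median. The members straddle 0 between -0.71 and 0.58, while 7 of 9 milk proteins passed above 0, up to 3.46.

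Several members are also made by other cells: Plin2 by macrophages, Cidea and Dgat1 by fat cells, Xdh by endothelium and Cel by the pancreas. Of 8 macrophage markers, 1 passed below 0, Itgam (-1.09 ± 0.27), and 1 above 0, Adgre1 (0.50 ± 0.23), with a list median of -0.13. Adgre1 is a mean of 2 rows that lay on opposite sides of 0, the first alone at 1.09. The rest of the macrophage list lay on both sides of 0 without passing. Fat cell markers held 0 of 8 below 0 and 4 above 0 (median 0.35), Fabp4 and Car3 (1.56 ± 0.53) being the highest and Lep (0.62 ± 0.11) and Adipoq (0.53 ± 0.30) following. Lipe and Cidec (-0.28 each) lay below 0 and the rest of that list above 0, all without passing. Car3 is a mean of 2 rows, and its first row alone had 2.26. Brown fat markers held 0 of 7 below 0 and 2 above 0, Ppargc1a (0.72 ± 0.050) and Prdm16 (0.77 ± 0.42), with a median of 0.093. Elovl3 (-0.42 ± 0.28) and Cox7a1 (-0.44 ± 0.41) lay below 0 without passing. The rest, with their defining gene Ucp1, lay above 0 without passing. Endothelial markers held 0 of 9 below 0 and 2 above 0, Kdr (0.69 ± 0.22) and Esam (0.45 ± 0.090), with a median of 0.042. The rest of that list lay on both sides of 0 without passing, from -0.45 for Cd34 to 0.22 for Emcn. Pancreatic acinar markers held 2 of 8 below 0, Ctrb1 (-0.63 ± 0.11) and Cela2a (-0.38 ± 0.14), and 1 above 0, Prss2 (0.66 ± 0.062), with a median of -0.043. Luminal epithelial markers held 1 of 9 below 0, Krt19 (-1.16 ± 0.35), and 2 above 0, Cdh1 (0.63 ± 0.29) and Cldn3 (0.36 ± 0.091). Their median was -0.20, with Krt8 (-0.26), Krt18 (-0.24), Cldn7 (-0.29) and Cldn4 (-0.20) below 0 without passing. Epcam (0.12) and Prom1 (0.13) lay above 0 without passing. The share past the threshold was 25% for macrophage, 50% for fat cell, 28.6% for brown fat, 22.2% for endothelial, 37.5% for acinar and 33.3% for luminal markers, against 25.1% of all genes and probes. With receptor centring the counts below and above 0 were 4 and 0 for macrophages, 2 and 2 for fat cells and 2 and 1 for brown fat. They were 4 and 1 for endothelium, 5 and 1 for acinar cells and 5 and 0 for luminal cells. Of all genes and probes 53.4% then passed below 0 and 7.49% above. Without array 3, Fabp4 was the gene that passed among all those named. The part of these cells in the members' ratios was not tested.

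The named genes most like each called member were those with the smallest Euclidean distance of log2 ratios over the 3 arrays. For Plin2 they were Rps2, a ribosomal protein gene (distance 0.027), with -1.23, -0.35 and -0.59, and Gapdh, a glycolytic enzyme gene averaged over 30 rows (distance 0.043), with -1.19, -0.34 and -0.58. Both share the low value of array 1 with Plin2. For Cel they were Taf1c and Ap5s1 (0.023 each), for Btn1a1 Seh1l (0.11) and She (0.12), and for Xdh Ptbp2 (0.031) and Pcdhb3 (0.044). The search took the 15055 named genes less the members, with only 3 values each, so the likeness is a description.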

How the data were processed

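Two-colour arrays (late carcinoma in Cy3, adenoma in Cy5) gave 38976 values for each of 3 arrays, with 1 value missing. The deposited log2 ratios are the authors' processed values, with medians of -0.012, -0.025 and -0.033; the sources used here name no scanner, background correction, normalization or log base, and the log2 scale is a reading of the values. Precision is limited by the number of arrays. Intensities were not used here.

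The platform annotation gave 22973 rows 1 gene symbol, 0 rows several and 16003 none. Gene identifiers were checked against RefSeq's GRCm38.p6 table, and 0 symbols changed. Per array, the rows of each gene were averaged. limma 3.58.1 (R 4.3.3) then fitted an intercept to each of 31058 genes or unnamed probes, with eBayes, two-sided tests and Benjamini-Hochberg adjustment over all of them. The fit was tested on simulated data. Of 206 entries in 17 gene lists, 172 were measured. Named genes were the members, up to 4 genes per list past the threshold by adjusted p, or the 2 largest means where none passed, and the 2 nearest genes of each called member. Relatives of members, Fabp3, Agpat1, Abhd5, Lipe, Ucp1, Elovl3, Cox7a1, Cd34, Emcn, Krt8, Krt18, Cldn7, Cldn4, Epcam and Prom1 were named after their values were seen. The members, lists and alternatives were chosen with earlier results of these data known. Plots used matplotlib 3.10.9 (Python 3.11.15).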

Additional observations from a re-analysis of the deposited data

How the results depend on the processing

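The 2 members past the threshold below 0 and the 2 above 0 were also the counts under median centring, equal spread, the first or median row, 2-array units, named genes alone, the robust model, array weights and an adjusted p of 0.1, and each row as its own probe gave 2 and 3, Muc1 being the addition. Plin2, Cel, Btn1a1 and Xdh have 1 row each, so the row settings could not change their ratios, only their adjusted p. The 2-array setting tested 31059 units against 31058, so it could hardly move them either. Receptor centring gave 4 below and 0 above, the running median 1 (Cel) and 1 (Xdh), and a mean of at least 2-fold, without a test, 0 and 0. Leaving out 1 array gave 0 to 2 below, 0 to 2 above, and 1 to 7324 of all genes and probes, with array 3 deciding the lowest of each. All genes and probes past the threshold, 7809 of 31058, became 18927 with receptor centring (12.3% of calls above 0, against 63.4%), 4274 with named genes alone (fewer tested), 12036 with array weights (array 3 weighted most) and 764 with the 2-fold rule.

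Some signs turned. With receptor centring Muc1 became -0.098, Plin1 -0.31, Plin4 -0.034, Ampd3 -0.071 and Gda -0.12. With the first row Muc1 became -0.051, as did its row 1 alone, Gda -0.083 and Ptbp2 -0.024, and with the running median Plin1 became -0.074. Without single arrays Dgat1 ran from -0.17 to 0.010 and Plin1 from -0.087 to 0.14. The causes were not tested beyond the shift of 0 that centring makes. No paired analysis was possible because each array is already a ratio of both stages. With ratios alone, weak signals cannot be told from strong ones.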
